A study of Mus musculus with 8 samples.

Results

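The Hist1 cluster on mouse chromosome 13 holds most of the replication-dependent histone genes, and its chromatin was examined here as 59 rows of the deposited HA signal table out of 253926. The rows were taken by their position in the mouse build mm9, and the cluster itself was picked with earlier results of these data known: 34 rows at chr13:21800001-22140000, called the upstream part below, and 25 rows at chr13:23620001-23870000, called the downstream part. Every one of the 59 rows was 10 kb wide, and each had a mean of at least 0.5 RPM (a row's reads relative to library depth) over the libraries, so none was lost to the filter on low signal. The cluster was set beside 245 surrounding rows, which were 148 rows between both parts, 50 rows in the 500 kb to the left and 47 rows in the 500 kb to the right. The limits came with the choice of the cluster. Gene positions in mm9 were not at hand, so neither the label of the cluster nor the place of any single gene could be checked against the rows.

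The cells were C3H10T1/2, an embryonic mouse mesenchymal progenitor line, at passage 10 to 15. The study had 4 lines, each stably expressing 1 FLAG-HA-tagged histone: wild type H3.1 (H3.1WT), H3.1K36M, wild type H3.3 (H3.3WT) or H3.3K36M. K36M is the replacement of a lysine of the histone tail by methionine. The HA tag was immunoprecipitated once per line, each time with an input, and only the 4 HA libraries were analysed. All cells also hold their own untagged H3, which the HA antibody does not bind. With 1 library per line there is no replicate spread and no test between lines, and every interval given is an exact 95% interval for counting error only.

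Replication-dependent histone genes make the bulk of the H1, H2A, H2B, H3 and H4 proteins that package newly copied DNA. They are short, lack introns, are transcribed mainly in S phase, and give mRNAs that end in a stem-loop in place of a poly(A) tail. H3.1 itself is a product of these genes and is deposited mainly with replication, whereas H3.3 comes from the separate genes H3f3a and H3f3b and is also deposited outside replication, among other places at strongly transcribed genes.

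In the RefSeq gene table of build GRCm38.p6, which was used for names and gene order only, the cluster holds 53 histone genes, 52 of them protein-coding, in 4 runs that no other protein-coding gene interrupts. They are 6 H1, 13 H2A, 14 H2B, 9 H3 and 11 H4 genes. The first run, from H2bc13 to H4bc24, has 19 genes and the second, from H2ac12 to H2bc11, has 5. Between them lie 31 tRNA genes and 3 protein-coding genes, Zfp184, Pom121l2 and Prss16. After the second run come 147 genes, among them 75 Vmn1r genes and pseudogenes (vomeronasal pheromone receptors), 46 tRNA genes, Abt1, Btn1a1 and Btn2a2. The third run, from H4c8 to H4c3, has 20 histone genes, and the fourth, from H1f2 to H1f1, has 9. Only 1 protein-coding gene, the iron regulator Hfe, separates these. The testis genes H2bc1 and H2ac1 follow after Trim38 and 4 Slc17a transporter genes, and whether they fall inside the limits is not known here.

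Some short promoter motifs just upstream of these genes differ in frequency between histone classes, while others are shared by several classes. The following sequences are from 1 gene of each class, all from the fourth run. They are the 250 bases before the gene start in RefSeq's GRCm38.p6, all on the + strand, and their coordinates cannot be compared with the mm9 positions used elsewhere. They lie at chr13:23738557-23738806 for H1f2 (linker histone H1), chr13:23750838-23751087 for H2ac4 (H2A), chr13:23746484-23746733 for H2bc3 (H2B), chr13:23752095-23752344 for H3c2 (H3) and chr13:23756687-23756936 for H4c2 (H4). Capitals mark matches, on either strand, to TATAAA (the TATA box), to CCAAT (the CCAAT box), to ATTTGCAT (an octamer known from H2B promoters), to AAACACA (a box known from H1 promoters) and to GGTCC (a core known from H4 promoters).
H1f2: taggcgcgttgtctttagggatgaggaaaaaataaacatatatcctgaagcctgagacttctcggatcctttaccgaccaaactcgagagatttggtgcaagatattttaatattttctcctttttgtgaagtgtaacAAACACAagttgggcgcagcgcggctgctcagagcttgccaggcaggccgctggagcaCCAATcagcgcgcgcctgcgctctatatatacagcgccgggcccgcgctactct
H2ac4: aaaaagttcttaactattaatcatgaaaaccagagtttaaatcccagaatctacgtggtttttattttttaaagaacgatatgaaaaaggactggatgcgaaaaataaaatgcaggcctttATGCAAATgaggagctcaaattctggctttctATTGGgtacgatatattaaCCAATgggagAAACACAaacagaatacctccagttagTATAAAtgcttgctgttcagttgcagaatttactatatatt
H2bc3: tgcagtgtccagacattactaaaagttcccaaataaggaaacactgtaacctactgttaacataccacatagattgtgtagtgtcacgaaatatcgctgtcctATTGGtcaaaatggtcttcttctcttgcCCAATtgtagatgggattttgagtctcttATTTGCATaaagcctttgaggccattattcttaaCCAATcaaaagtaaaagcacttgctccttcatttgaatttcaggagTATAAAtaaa
H3c2: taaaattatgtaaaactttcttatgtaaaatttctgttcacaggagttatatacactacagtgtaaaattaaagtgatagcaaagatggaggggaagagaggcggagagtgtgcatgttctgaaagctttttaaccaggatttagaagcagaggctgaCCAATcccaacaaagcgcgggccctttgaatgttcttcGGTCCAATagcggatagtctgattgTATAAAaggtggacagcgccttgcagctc
H4c2: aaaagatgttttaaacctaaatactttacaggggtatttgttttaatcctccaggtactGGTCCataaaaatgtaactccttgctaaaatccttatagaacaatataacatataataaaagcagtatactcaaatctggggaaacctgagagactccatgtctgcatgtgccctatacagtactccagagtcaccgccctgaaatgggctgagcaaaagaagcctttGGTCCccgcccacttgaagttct

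These examples differ in which motifs they carry. In H2bc3 the TATAAA match begins 10 bases before the start, the octamer 90 bases before it and CCAAT matches 56, 119 and 147 bases before it. H4c2 has GGTCC 23 and 191 bases before the start and no match to the other motifs. H1f2 has AAACACA at 112 bases and CCAAT at 54 bases. H2ac4 has AAACACA at 68 bases, the octamer at 129, CCAAT at 78 and 97 and TATAAA at 41, so its motifs are not those of 1 class alone. Of the 53 genes, 49 had a promoter in the table, 50 promoters in all since 1 gene had more than 1 start. CCAAT was present in 42 of the 50, in all 6 H1, 12 H2A, 14 H2B and 7 H3 promoters and in 3 of 11 H4 promoters, against 33.8% of all 32851 promoters of the table. GGTCC was present in 10 of 11 H4 promoters and in 39.8% of all promoters. It was found in 1 of 6 H1, 2 of 12 H2A, 6 of 14 H2B and 2 of 7 H3 promoters. AAACACA was found in 5 of 6 H1 promoters, 1 of 12 H2A and 1 of 14 H2B promoters and in none of the H3 and H4 promoters, against 6.25% of all. ATTTGCAT occurred in 5 of 14 H2B and 4 of 12 H2A promoters and in 1.6% of all promoters. TATAAA was present in 24 of the 50, against 12.4% of all. By class it was found in 4 of 6 H1, 4 of 12 H2A, 6 of 14 H2B, 4 of 7 H3 and 6 of 11 H4 promoters. GGTCC and CCAAT can share letters, as they do in H3c2. A match describes letters only, and no HA row of 10 kb resolves a promoter.

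H3.3 was high and H3.1 was low over the rows of the cluster, which also span other genes. The cluster held 6.90 RPM per 10 kb in H3.3WT and 9.87 in H3.3K36M, and 2.45 in H3.1WT and 2.53 in H3.1K36M. Over all 245206 bins used, medians were 2.77 RPM in H3.3WT, 3.004 in H3.3K36M, 3.65 in H3.1WT and 3.64 in H3.1K36M. The median cluster row was thus 2.40-fold above the median bin in H3.3WT and 3.23-fold above it in H3.3K36M, while it was 1.47-fold below in H3.1WT and 1.41-fold below in H3.1K36M. Rows at or above the library's 90th percentile numbered 21 of 59 in H3.3WT and 41 of 59 in H3.3K36M, where by construction about 10.1% and 10% of all bins lie. Rows at or below the 10th percentile numbered 29 of 59 in H3.1WT and 27 of 59 in H3.1K36M, against 10.1% and 10.2% of all bins. Just 1 row was that low in H3.3WT and 1 in H3.3K36M, against 10.2% and 10.4% of bins, and 2 rows were at or above the 90th percentile in each H3.1 library, against 10% and 10.2%. The cluster rested on 5114 reads in H3.1WT, 6194 in H3.1K36M, 18938 in H3.3WT and 22491 in H3.3K36M.

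**Figure D1:**
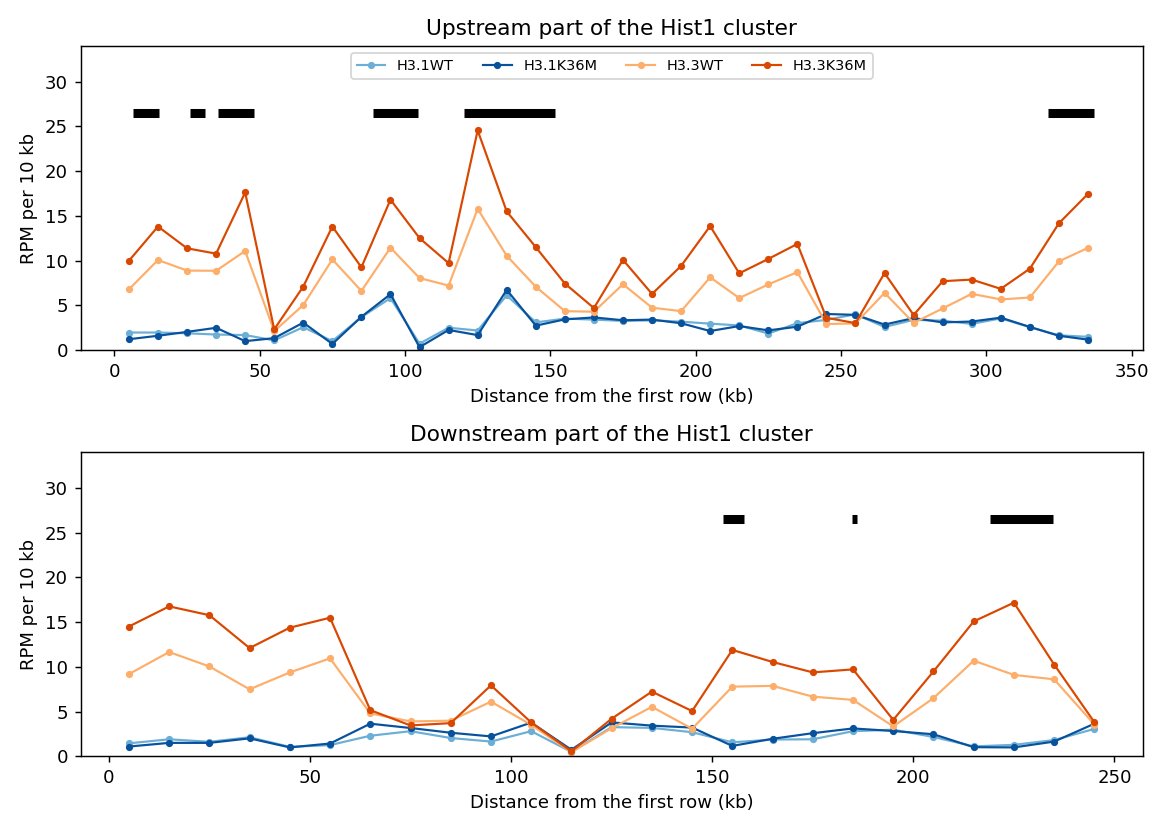
HA signal (RPM per 10 kb, y axis) of the 4 libraries along the upstream part (top, 34 rows) and the downstream part (bottom, 25 rows), against distance from the first row of each (kb). Points are rows and black bars are the authors' H3.3K36M peaks. The orange H3.3 lines run above the blue H3.1 lines in most rows and drop to or below them in the same gaps. H3.3K36M reaches its highest value, 24.6 RPM, in the upstream part.

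Each library was also compared with its own surroundings. In H3.3WT the cluster held 2.26-fold (2.22 to 2.30) the signal of the surrounding rows, and in H3.3K36M 2.13-fold (2.09 to 2.16). In H3.1WT the cluster held 0.645 (0.626 to 0.664) and in H3.1K36M 0.657 (0.640 to 0.675) of the surrounding signal. The contrast differed by neighbour: against the rows between both parts H3.3WT was 2.57-fold higher (2.52 to 2.62), and against the outer flanks 1.92-fold (1.88 to 1.96). Both parts of the cluster carried the pattern. The upstream part had 7.17 RPM per 10 kb in H3.3WT, 10.3 in H3.3K36M, 2.76 in H3.1WT and 2.73 in H3.1K36M, and the downstream part had 6.54, 9.26, 2.04 and 2.25 RPM in the same order. Both tagged variants were thus higher in the upstream part, by 1.10-fold (1.06 to 1.13) in H3.3WT and by 1.35-fold (1.27 to 1.43) in H3.1WT.

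**Figure D2:**
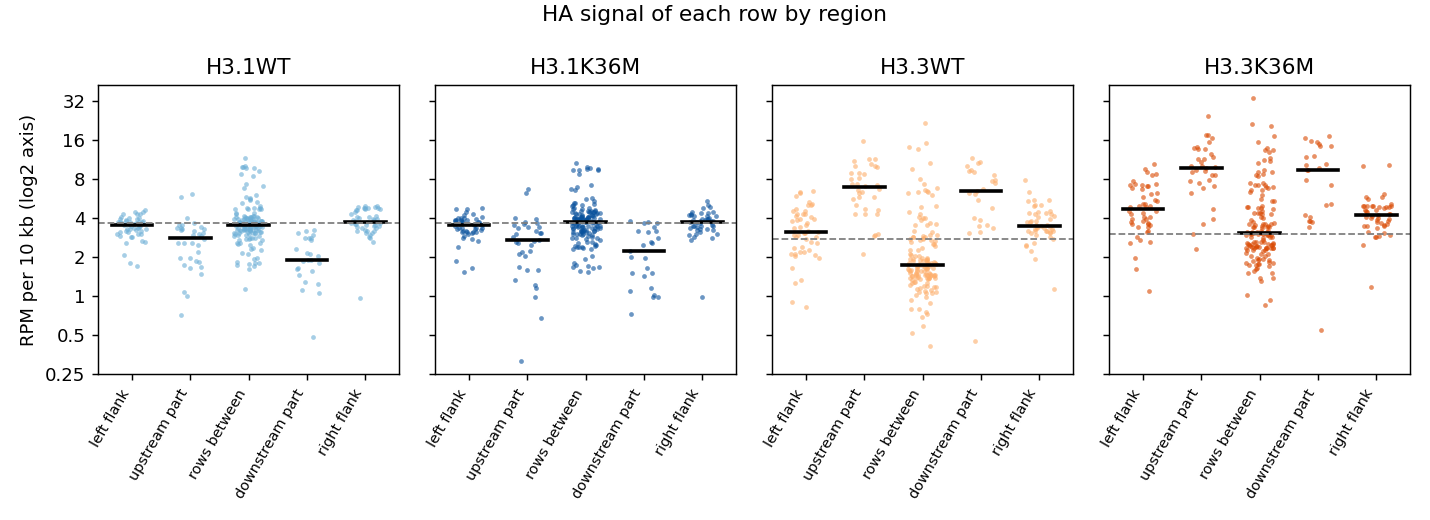
HA signal of each row (RPM per 10 kb, log2 axis) in the 4 libraries for the left flank (50 rows), upstream part (34), rows between (148), downstream part (25) and right flank (47). Points are rows, black bars are medians of rows and the dashed line is the median of all bins. Both cluster parts sit above the dashed line in the H3.3 libraries and below it in the H3.1 libraries, while the rows between sit lowest in H3.3WT.

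Means over 50 kb of H3.3WT fell strongly across 3 of the 4 limits, though such means do not place the change at the limit itself. In the first 50 kb inside the first limit H3.3WT had 9.13 RPM per 10 kb and H3.1WT 1.83, whereas in the 50 kb just outside H3.3WT had 3.01 and H3.1WT 4.09. At the second limit H3.3WT went from 7.83 RPM inside to 2.43 outside, and at the fourth from 7.68 to 3.16. H3.1WT differed less at the second limit, with 2.42 RPM inside and 2.97 outside. The first row outside it, chr13:22140001-22150000, still had 4.945 RPM in H3.3WT and a peak. The last row inside the fourth limit, chr13:23860001-23870000, already had only 3.55 RPM in H3.3WT. The third limit showed a smaller drop. There H3.3WT had 9.55 RPM inside and 6.63 outside, and H3.3K36M 14.7 and 11.2, so high H3.3 signal ran on into the rows between. Those rows included chr13:23490001-23500000, the highest of all 304 rows in each of the 4 libraries. It had 21.9 RPM in H3.3WT, 33.9 in H3.3K36M, 11.6 in H3.1WT and 10.7 in H3.1K36M. H3.3WT was there 1.89-fold above H3.1WT (1.68 to 2.12). At chr13:23510001-23520000, also between the parts, H3.3WT had 14.1 RPM and H3.3K36M 17.4, with 2.72 in H3.1WT and 3.42 in H3.1K36M. High H3.3 signal at this locus was therefore not confined to the cluster rows.

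The WT lines were compared row by row, with 2-fold of RPM plus 0.1 as a rule of size. H3.3WT was at least 2-fold above H3.1WT in 36 of the 59 rows and at least 2-fold below in none, where 10.3% of all bins were higher and 16.8% lower by this rule. Among the surrounding rows 14 of 245 were higher and 92 lower. Over the whole cluster H3.3WT was 2.81-fold above H3.1WT (2.73 to 2.90), against 0.801 (0.789 to 0.813) in the surroundings, so the intervals of these ratios lie far apart. Scaling by the median of all bin ratios raised log2 ratios by 0.43, which gave 44 rows higher and none lower, with 20.1% and 1.37% of all bins. The median row had a log2 ratio of 1.17 as deposited, and all bins a median of -0.43. H3.3WT was the higher by any amount in 54 of 59 rows, against 35.7% of bins.

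The rows with the largest excess of H3.3 were also among the rows poorest in H3.1. At chr13:21900001-21910000 the signal was 0.708 RPM in H3.1WT, 0.313 in H3.1K36M, 8.04 in H3.3WT and 12.5 in H3.3K36M. H3.3WT was there 11.4-fold above H3.1WT (7.58 to 17.8), on 374 against 25 reads. At chr13:21870001-21880000 the values were 0.991, 0.675, 10.1 and 13.8 RPM in the same order, a 10.2-fold excess in the WT lines (7.25 to 14.9). In the downstream part chr13:23830001-23840000 held 1.10 RPM in H3.1WT, 1.01 in H3.1K36M, 10.7 in H3.3WT and 15.1 in H3.3K36M, which is 9.68-fold in WT (6.98 to 13.8). These rows were ranked by H3.3WT over H3.1WT on the same reads. Low H3.1WT in them is thus partly built in, and their folds tend to be overstated. H3.1K36M and H3.3K36M had no part in that ranking. In each of them the H3.3 libraries stood far above both H3.1 libraries with no overlap.

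The highest mean signal was in a row of the same kind, chr13:21920001-21930000, with 2.18 RPM in H3.1WT, 1.66 in H3.1K36M, 15.8 in H3.3WT and 24.6 in H3.3K36M. Some cluster rows departed from this pattern. Next by mean signal came chr13:21890001-21900000 and chr13:21930001-21940000, which were rich in both variants. The first of these had 5.80 RPM in H3.1WT, 6.24 in H3.1K36M, 11.4 in H3.3WT and 16.8 in H3.3K36M, and the second 6.11, 6.72, 10.5 and 15.5 RPM. They were the only 2 cluster rows at or above the 90th percentile of an H3.1 library. At the other end, chr13:23730001-23740000 was nearly empty in every library, with 17 reads in H3.1WT, 30 in H3.1K36M, 21 in H3.3WT and 21 in H3.3K36M. H3.3 fell below H3.1 at chr13:22050001-22060000, with 3.99 RPM in H3.1WT, 3.93 in H3.1K36M, 2.97 in H3.3WT and 3.004 in H3.3K36M. That row had the lowest H3.3WT over H3.1WT ratio of the cluster at 0.744 (0.584 to 0.947). Its H3.3K36M over H3.1K36M ratio was 0.765 (0.5975 to 0.976).

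**Figure D3:**
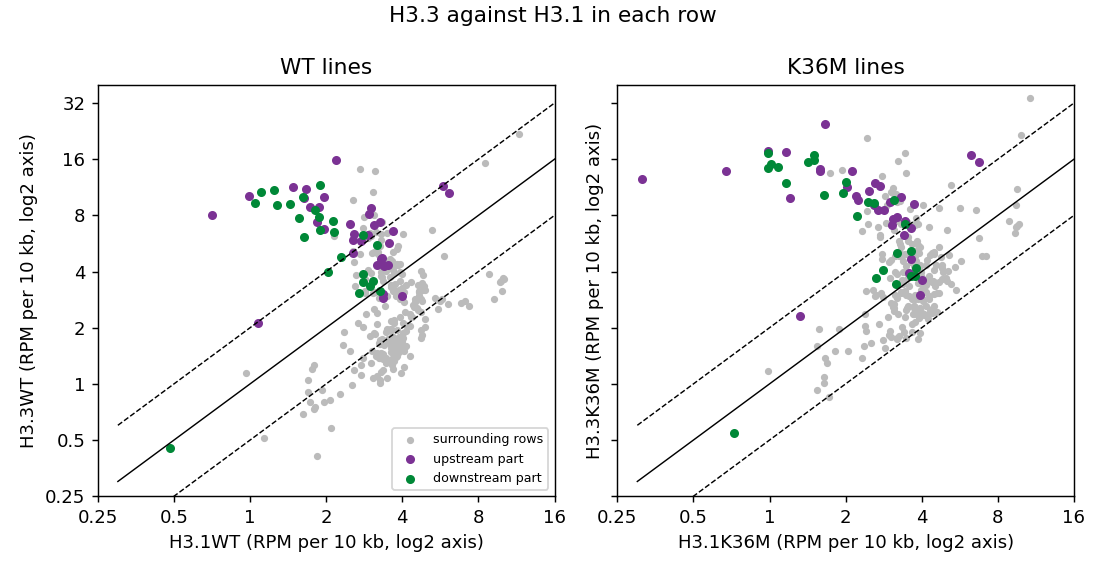
H3.3 against H3.1 signal per row (RPM per 10 kb, both axes log2) in the WT lines (left) and the K36M lines (right), for the upstream part, the downstream part and the surrounding rows. The solid line marks equal signal and dashed lines mark 2-fold. In WT lines 36 of 59 cluster rows and in K36M lines 43 of 59 lie above the upper dashed line by the rule of size, and cluster rows with more H3.3 tend to hold less H3.1.

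Across the 59 cluster rows H3.1 and H3.3 ran in opposite directions by rank, unlike the surroundings. Spearman's rho of H3.1WT with H3.3WT was -0.44 (Pearson's r of log2 RPM -0.02), and of H3.1K36M with H3.3K36M -0.57 (r -0.26). Without the nearly empty row the values of r were -0.37 and -0.49 over 58 rows, so r depends on that row. In the 245 surrounding rows rho was 0.19 and 0.21, and over all bins 0.45 and 0.46. Libraries of the same variant had r of 0.92 (H3.1) and 0.97 (H3.3) across the cluster rows. These are descriptions over neighbouring rows that share mappability and base composition. Histone genes have near-identical copies, and no source used here says how the authors placed reads that match several of them.

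Stretches at or above 2-fold and stretches under it, H3.3WT over H3.1WT, alternated along each part. Since no gene was placed on a row, they cannot be matched to the runs of genes. In the upstream part the rows with at least 2-fold more H3.3WT than H3.1WT began with 50 kb at chr13:21800001-21850000, which averaged 9.13 RPM in H3.3WT and 1.83 in H3.1WT. Early stretches under 2-fold included chr13:21850001-21870000, with 3.57 RPM in H3.3WT and 1.81 in H3.1WT, chr13:21950001-21970000, with 4.31 and 3.45 RPM, and chr13:21980001-22000000, with 4.54 and 3.24 RPM. The rows of the first lay just short of the rule, at 1.96-fold and 1.98-fold. Not all such stretches were poor in H3.3: chr13:21880001-21900000 had 9.02 RPM in H3.3WT and 4.74 in H3.1WT, and chr13:21930001-21940000 had 10.5 and 6.11 RPM. The 40 kb at chr13:22000001-22040000 were rich again, with 7.49 RPM in H3.3WT and 2.63 in H3.1WT. The next 20 kb, chr13:22040001-22060000, had 2.93 RPM in H3.3WT and 3.68 in H3.1WT. Short stretches of both kinds followed, and in the last 30 kb, chr13:22110001-22140000, H3.3WT had 9.07 RPM against 1.89. In the downstream part a 70 kb stretch at chr13:23620001-23690000 averaged 9.07 RPM in H3.3WT and 1.67 in H3.1WT. The 50 kb at chr13:23720001-23770000 averaged 3.14 and 2.48 RPM. Another 40 kb at chr13:23770001-23810000 had 7.15 and 2.03 RPM, and 40 kb at chr13:23820001-23860000 had 8.72 and 1.58 RPM.

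The K36M lines were compared with each other in the same way. H3.3K36M was at least 2-fold above H3.1K36M in 43 of 59 rows and at least 2-fold below in none, where 8.18% of all bins were higher and 3.29% lower. After scaling by the median of all bin ratios, a shift of 0.30, 46 rows and 12.8% of bins were higher, and no row and 0.328% of bins lower. Over the cluster the ratio was 3.90 (3.79 to 4.01), against 1.21 (1.19 to 1.22) in the surrounding rows. H3.3K36M was the higher by any amount in 56 of 59 rows, against 32.1% of bins. Of the cluster rows, 35 passed the rule in both states, 8 in the K36M lines alone and 1 in the WT lines alone, and 15 passed in neither. The share of all bins that passed in both states was not computed, so this overlap cannot be called particular to the cluster. The highest ratio was again at chr13:21900001-21910000, at 39.9-fold (23.1 to 75.5), where H3.1K36M had only 13 reads. At chr13:21840001-21850000 the ratio was 17.8 (13 to 25.1), with 0.988 RPM in H3.1K36M and 17.6 in H3.3K36M.

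H3.3 signal over the cluster was higher in the K36M line than in the WT line, and so was that of the neighbourhood. Between these lines, K36M over WT, the H3.3 ratio was 1.43 (1.40 to 1.46) in the cluster and 1.52 (1.502 to 1.54) in the surrounding rows. It was 1.70 (1.67 to 1.73) in the rows between, 1.499 (1.45 to 1.54) in the left flank and 1.17 (1.14 to 1.21) in the right flank. Other bins of chromosome 13 had 1.18 (1.18 to 1.18). The cluster's ratio was thus below that of the rows between its parts and above that of the right flank, by counting intervals that do not overlap. These intervals leave out the spread between rows, which was wide. Row log2 ratios ran from -0.17 to 1.10 in the cluster and from -0.10 to 1.80 in the rows between. In the right flank they ran from -0.48 to 1.02. H3.3K36M was the higher in 57 of 59 cluster rows, against 58.4% of all bins and 232 of 245 surrounding rows. The interval of the ratio lay wholly above 1 in 48 cluster rows and wholly below 1 in none, against 26.8% and 20.6% of all bins. Intervals narrow with more reads, so these shares are not at equal depth. Cluster rows had medians of 310 reads in H3.3WT and 375 in H3.3K36M, against 129 and 116 in all bins. Only 1 row reached 2-fold and none fell by 2-fold, where 2.94% of all bins were at least 2-fold higher and 1.81% lower. Scaling by the median of all bin ratios lowered log2 ratios by 0.10, left 55 rows higher and none past 2-fold, and gave 1.94% of bins higher and 2.73% lower.

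**Figure D4:**
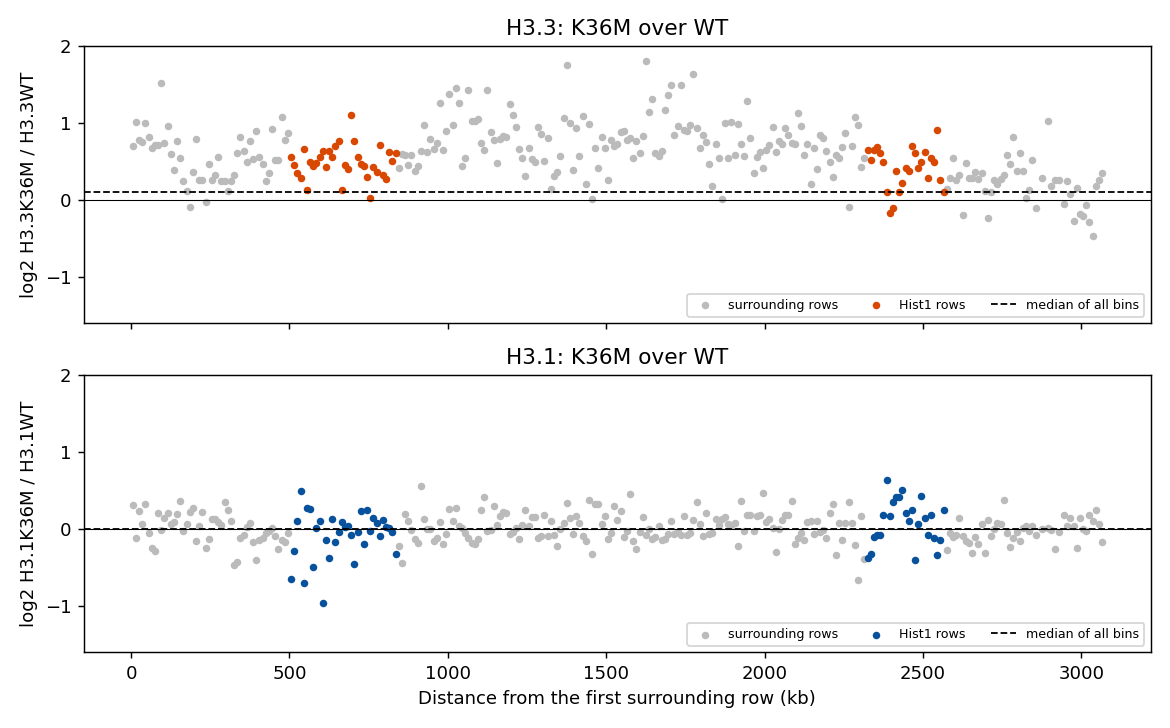
Log2 ratio of K36M over WT per row for H3.3 (top) and H3.1 (bottom) against distance from the first surrounding row (kb). Coloured points are Hist1 rows, grey points are surrounding rows and the dashed line is the median of all bins. In H3.3 the cluster rows, 57 of 59 above 0, sit within the range of their neighbours, and in H3.1 they scatter on both sides of 0.

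Single rows ranged from a fold of 0.885 to 2.16 in this ratio. At chr13:21990001-22000000, the row past 2-fold, signal was 4.34 RPM for H3.3WT and 9.40 for H3.3K36M, or 2.16-fold (1.82 to 2.58), while H3.1WT had 3.17 RPM and H3.1K36M 2.99. At chr13:23840001-23850000 H3.3 went from 9.09 RPM in the WT line to 17.2 in the K36M line, 1.89-fold (1.67 to 2.14). The lowest ratios were at chr13:23690001-23700000, with 3.89 RPM in H3.3WT and 3.44 in H3.3K36M, at 0.885 (0.702 to 1.11), and at chr13:23700001-23710000, with 3.98 and 3.70 RPM, at 0.931 (0.743 to 1.16). The intervals of both include 1, so no difference was detectable there at this depth.

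H3.1 over the cluster differed little between the lines. The ratio of H3.1K36M over H3.1WT was 1.03 (0.994 to 1.07) for the cluster, 0.992 (0.946 to 1.04) for the upstream part and 1.10 (1.04 to 1.18) for the downstream part. In the surrounding rows it was 1.01 (0.997 to 1.03). H3.1K36M was the higher by any amount in 32 of 59 rows, against 49.8% of bins. By RPM plus 0.1, no cluster row was 2-fold higher or lower, where 0.0122% of all bins were higher and 0.064% lower. The interval lay wholly above 1 in 3 rows and wholly below 1 in 4, close to the 6.41% and 7.06% of all bins. Cluster rows had fewer reads here, with medians of 88 in H3.1WT and 107 in H3.1K36M, against 129 and 151 in all bins. The 4 rows with an interval below 1 were all in the upstream part. The lowest was chr13:21900001-21910000, with 0.708 RPM in H3.1WT and 0.313 in H3.1K36M on 25 and 13 reads, a plain ratio of 0.443 (0.208 to 0.899) that is past 2-fold lower without the added 0.1 RPM. At chr13:21840001-21850000 H3.1 went from 1.67 RPM in WT to 0.988 in K36M, a ratio of 0.592 (0.387 to 0.897), on 59 and 41 reads. Highest was chr13:23680001-23690000, with 2.29 RPM in H3.1WT and 3.64 in H3.1K36M, a ratio of 1.59 (1.20 to 2.11).

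Within the cluster, rows where H3.1K36M lay below H3.1WT tended to have a larger H3.3 ratio of K36M over WT. Across the 59 rows the log2 ratios of K36M over WT in H3.3 and H3.1 had Pearson's r of -0.51 and Spearman's rho of -0.57, and r of -0.44 in the upstream and -0.57 in the downstream part. These ratios share no library. Across the 245 surrounding rows r was 0.01, and across chromosome 13 it was 0.10. In the 27 rows with less H3.1 in the K36M line the median H3.3 log2 ratio was 0.61, against 0.39 in the 32 rows with more. The former also held less H3.1WT, a median of 1.95 against 2.75 RPM, and more H3.3WT, 8.60 against 5.76 RPM, so rows of this kind differ in level and counting precision as well. The part of those levels in the relation was not tested.

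**Figure D5:**
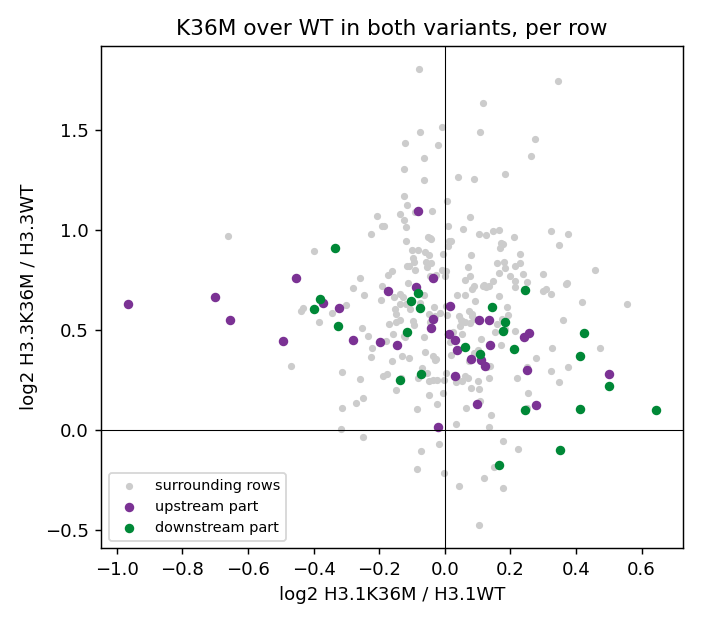
K36M over WT log2 ratios of H3.3 (y axis) against those of H3.1 (x axis) per row, for the upstream part, the downstream part and the surrounding rows. Cluster rows run from upper left to lower right (r of -0.51 over 59 rows), and the grey surrounding rows show no such trend (r of 0.01 over 245 rows).

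The authors' peak lists, which hold positions only, placed 9 H3.3K36M peaks on the cluster and no H3.1K36M peak. The H3.1K36M list of 73 peaks held none on chromosome 13 at all. The 9 peaks covered 111.4 kb, or 18.9% of the cluster, against 2.22% of the surrounding rows, and they gave 15.3 peaks per Mb against 4.44. Rows with a peak made up 19 of 59 in the cluster, 15 of 245 in the surroundings and 4.25% of all bins. Cluster peaks were long, with a median of 12.4 kb and 5 of 9 at 10 kb or more, where the median of all 8375 H3.3K36M peaks was 2 kb and 6.79% reached 10 kb. The longest was chr13:21920401-21951600 (31.2 kb), followed by chr13:22121201-22137200 (16 kb), chr13:23839001-23854800 (15.8 kb), chr13:21889001-21904400 (15.4 kb) and chr13:21835801-21848200 (12.4 kb). The others were chr13:21806401-21815400 (9 kb), chr13:21826001-21831200 (5.2 kb), chr13:23772601-23777800 (5.2 kb) and chr13:23804801-23806000 (1.2 kb).

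Peaks followed the signal only in part. Cluster rows with a peak had a median of 8.88 RPM in H3.3WT, a library other than the one the peaks are named for, against 5.73 RPM in the 40 rows without. Their H3.1WT medians were 1.87 and 2.63 RPM. Of the 40 rows without a peak, 21 were still at least 2-fold higher in H3.3WT than in H3.1WT, where 10.3% of all bins were. In 7 rows without a peak, 5 of them in the downstream part, H3.3K36M was at or above 12.5 RPM, the median of the rows with one. An example is chr13:23630001-23640000, with 1.90 RPM in H3.1WT, 1.49 in H3.1K36M, 11.7 in H3.3WT and 16.8 in H3.3K36M. Over all bins at or above that level, 43.8% held no peak, so a high row without a peak was common. No source used here names the caller or control behind the lists.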

How the data were processed

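HA libraries of 4 lines were compared, grouped by the genotype field of the labels. Titles of the H3.3 ChIPs carry an H3.1 name as well. The protocol text names a Cbx2 antibody and the sample descriptions an HA antibody, which was followed. Bowtie 1.0.0 and mm9 were used, per the submitters' processing notes. For read counting, duplicates and peak calling, methods are not given in the sources used here. Row values are RPM as the authors deposited them, and 100% of values above 0 were whole multiples of 1 read within 0.01 of a read, which gave 35487141 reads for H3.1WT, 41705735 for H3.1K36M, 46749609 for H3.3WT and 38783917 for H3.3K36M. No count model was run on these reads, since no line has a replicate. Input libraries were not used here.

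Rows wider than 10 kb, found only in the right flank of the region, hold sums and were divided by width. All bins are the 10 kb rows of chromosomes 1 to 19 and X with a mean of at least 0.5 RPM. Ratios of summed RPM have exact Clopper-Pearson 95% intervals on recovered reads, which are not independent molecules without molecular identifiers. Log2 ratios use RPM plus 0.1, which understates low rows. The peak positions that the authors deposited lie on a 200 bp grid and carry no score. Rows named are those with a peak, the 5 highest and lowest by mean and by each ratio, selected for print after their values were seen. The rows chr13:23490001-23500000 and chr13:23510001-23520000 and the example genes were also chosen then. The cluster, gene lists and motifs were chosen with earlier results of these data known. The gene table's other build kept genes off the rows, and protein sequences were not used here. Ratios and their intervals were first run on simulated independent Poisson counts. That checks the calculation only, since the simulation meets the assumptions of the interval. Scripts ran in Python 3.11.15 with scipy 1.17.1, numpy 2.4.6, matplotlib 3.10.9 and pandas 2.3.3. Alternatives were other pseudocounts, filters, scaling, limits, neighbours and overlap rules.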

Additional observations from a re-analysis of the deposited data

How the results depend on the processing

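Of 92 recomputed values, 72 stayed within the counting interval of the ratio or within 1.5 times the count, 20 moved further and none reversed direction. Part of the 72 could not move, so this tally overstates stability. Every cluster row was 10 kb wide and past the filter, so leaving out wide rows or the filter changed no cluster ratio or row count. The H3.1K36M peak count was likewise fixed, as that list holds no peak on chromosome 13. Scaling by the median of all bin ratios gave cluster ratios of 3.80 for H3.3WT over H3.1WT, 4.81 for H3.3K36M over H3.1K36M and 1.33 for H3.3K36M over H3.3WT. The K36M-line ratio was 3.78 without the highest row and 3.78 with rows 10 kb inside the limits. The 1 row at 2-fold in H3.3K36M over H3.3WT became 0 with a pseudocount of 1 RPM and 0 after scaling, and the 0 rows 2-fold lower in H3.1K36M became 1 with a pseudocount of 0.01 RPM. Cluster over surroundings, against only the rows between, was 0.623 in H3.1WT, 0.629 in H3.1K36M, 2.57 in H3.3WT and 2.16 in H3.3K36M; against only the outer 500 kb it was 0.679, 0.705, 1.92 and 2.07. Against the other bins of chromosome 13 it was 2.01 (H3.3WT) and 2.43 (H3.3K36M), so that the order of these libraries turned between neighbourhoods. Without the highest row it was 2.21 (H3.3WT) and 2.07 (H3.3K36M). Leaving out the lowest row was chosen after seeing the data and moved no ratio beyond its interval. The r of -0.51 between the K36M over WT ratios was -0.50 with a pseudocount of 0.01 RPM and -0.57 with 1 RPM. No paired analysis was possible because each line has 1 HA library and the labels carry no replicate numbers. The cause of these moves was not tested. Rows with as few as 13 reads limit single-row folds, and without the input libraries a copy number that differs between lines cannot be told apart from histone placement. Mappability was not measured here, and its part in the ratios of the cluster over its surroundings was not tested.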
